A study of Mus musculus with 36 samples.

Results

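The 8 genes that write, maintain or remove DNA methylation were followed through a SLAM-seq experiment in mouse embryonic stem (mES) cells, out of 22979 genes in the tables. The members were taken by gene symbol, with no cut on a measured value, and all 8 were listed in all 6 tables. The set was chosen with earlier results of these data known. They were Dnmt1, Uhrf1, Dnmt3a, Dnmt3b, Dnmt3l, Tet1, Tet2 and Tet3. SLAM-seq marks newly made RNA with 4-thiouridine (4sU), which is read as T-to-C changes, so each library gave a read count per gene and an estimate of the share of its RNA that carried label.

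The 36 libraries came from 3 female (XX) lines of a Cast x 129S cross, each with an FKBP12 F36V degron on 1 protein. Clone 12D carried it on METTL3, the catalytic subunit of the enzyme that writes m6A in RNA. Clone Y12H carried it on YTHDC1, which binds m6A in the nucleus, and clone Z12H on ZCCHC8, part of the NEXT complex that hands nuclear RNA to the exosome. Each line was either left without the degrader (Ctrl) or given dTAG-13 from 2 h before doxycycline (dTAG), and each arm was sampled at 0, 90 and 180 min of chase, with 2 replicates per group and 18 groups. All groups, Ctrl included, received 1 µg/ml doxycycline for 20 h before the pulse, which switches on the 129S Xist allele from a TetOn promoter. All groups then had a 4 h pulse of 500 µM 4sU and a chase with 50 mM uridine. Every line was 1 clone, the cells were grown on inactivated feeder fibroblasts that were removed by preplating, and the labels do not say what the 2 replicates were. The study's reporting summary states, for its RNA-seq as a whole, that several clones or independent repeats of a single clone were used. It also states that the wells within a repeat came from 1 batch of cells. The 6 libraries per line and arm were 2 replicates at 3 chase times, and those of 1 replicate may share a culture. They are not 6 independent repeats, so p-values of the main fit measure the spread between libraries of 1 clone. Fits of the dTAG test with the chase libraries summed, 2 against 2, are given with the results. The degron acts on protein, so the RNA level of the tagged gene does not check the arm labels.

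DNA methylation at CpG sites is copied after replication by DNMT1, which UHRF1 brings to hemimethylated DNA. New methylation is laid down by DNMT3A and DNMT3B, helped by DNMT3L, a relative without catalytic activity that is abundant in mES and germ cells. TET1, TET2 and TET3 oxidise 5-methylcytosine, the first step of active removal. In mES cells TET1 and TET2 are the usual TET enzymes, and female mES cells are known for low global methylation when both X chromosomes are active.

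The genes lie on 7 chromosomes of the mm10 build, and each is protein coding. By the GENCODE M21 annotation, Dnmt1 is at chr9:20907209-20959888 on the minus strand, with 39 exons in its longest coding transcript. Uhrf1 is at chr17:56303321-56323486 on the plus strand. The de novo genes are Dnmt3a at chr12:3806007-3914443, Dnmt3b at chr2:153649450-153687730 and Dnmt3l at chr10:78041947-78063622, all on the plus strand. The Tet genes are on the minus strand, with Tet1 at chr10:62804570-62908996, Tet2 at chr3:133463679-133545139 and Tet3 at chr6:83362373-83459084. Exons of Dnmt3a, Dnmt3l and Tet2 overlap exons of Dnmt3aos, Aire and Gm42567 on the opposite strand. The kit was stranded, but whether the counting used strand is not given in the sources used here, so a part of these 3 counts could belong to the partner.

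A pair of promoters is shown because Dnmt1 and Uhrf1 moved together more closely than any other pair of members. RefSeq (GRCm38.p6, the mm10 assembly) gives 15 promoter windows for the 8 genes, each running from 250 bases before the start to 50 after it. They were searched on both strands for the letters TTTCCCGC, TTTGGCGC, TTTCGCGC and TTTGCCGC, which are forms of the E2F consensus of S-phase promoters, and 2 of the 15 windows held one, against 2.26% of all 32851 promoters. One window belongs to Dnmt1 (chr9:20952574-20952873, minus strand) and the other to Uhrf1 (chr17:56304063-56304362, plus strand). Each searched string holds a CpG, and these 2 windows held 33 CpG each, at the 91.4 percentile of all promoters. The 2.26% is therefore not a share among promoters of like CpG content. A match of letters does not show that E2F binds. The capitals mark the letters found. In Dnmt1 they begin 219 bases before the start and 33 after it, and in Uhrf1 185 bases before it.
Dnmt1: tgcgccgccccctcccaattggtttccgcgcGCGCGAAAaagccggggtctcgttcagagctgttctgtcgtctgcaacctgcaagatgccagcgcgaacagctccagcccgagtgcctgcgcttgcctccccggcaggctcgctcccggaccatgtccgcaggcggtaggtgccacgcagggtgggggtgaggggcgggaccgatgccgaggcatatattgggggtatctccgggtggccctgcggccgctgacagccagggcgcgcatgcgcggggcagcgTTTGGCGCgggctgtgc
Uhrf1: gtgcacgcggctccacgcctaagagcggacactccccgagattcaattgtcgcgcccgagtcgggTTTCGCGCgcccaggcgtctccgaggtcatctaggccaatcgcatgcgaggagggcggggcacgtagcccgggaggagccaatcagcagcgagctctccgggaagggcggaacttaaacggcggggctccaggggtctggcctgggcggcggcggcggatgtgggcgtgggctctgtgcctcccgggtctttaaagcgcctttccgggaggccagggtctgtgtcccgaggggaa
In Dnmt1 the first match is the reverse complement of TTTCGCGC. The other 13 windows, among them further windows of Dnmt1 and Uhrf1, did not hold these letters, which says nothing of E2F binding there.

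Letters of the m6A consensus are shown next, because METTL3 and YTHDC1 write and read that mark. GGACT, a common form of the consensus, occurred 15 times in the longest coding transcript of Dnmt3a, 13 times in Tet1, 10 in Tet3, 9 in Tet2, 5 in Uhrf1, 4 in Dnmt3b, 3 in Dnmt1 and once in Dnmt3l. Per kb these counts ran from 0.511 in Dnmt1 to 1.55 in Dnmt3a, around a median of 1.04 over 19434 coding genes. The mark is known to gather near stop codons. In Dnmt1 the nearest GGACT started 4 bases before the first base of the stop codon, so that its last letter is part of that codon (chr9:20907513-20907537, minus strand). In Dnmt3b it started 12 bases after the first base of the stop codon (chr2:153686399-153686423, plus strand). A GGACT within 12 bases of the stop codon was present in 3.84% of 19354 coding transcripts. In Dnmt3l the single GGACT lay 708 bases before the stop codon (chr10:78052811-78052835, plus strand), and in Tet3 the nearest lay 915 bases before it (chr6:83368945-83368969, minus strand). The windows below come from the transcripts, with the letters in capitals and 10 bases on each side.
Dnmt1: ctgctaccaaGGACTagtgctctca
Dnmt3b: gttctacccaGGACTggggagctct
Dnmt3l: ctcacggagtGGACTgctgcagagg
Tet3: aagccagtggGGACTgttcactggt
A match of letters does not show a methylated site, and no m6A was measured here.

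Depth ran from 5274684 to 18652000 reads per library, lowest in the ZCCHC8 line (5274684 to 10257631). The cells carried the mES label in their RNA: all 10 stem cell markers were read in every library, and their sum was 3028 to 4096 CPM (read counts scaled to library size). The 10 feeder fibroblast markers summed to 27.5 to 69.0 CPM, mostly Fbn1 at 16.7 to 41.0, and Lum was at 0 in 22 of 36 libraries. Each member had ample reads except Tet3, at 99 to 690 reads, and the next lowest was Tet2, at 659 to 1951.

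The members differed widely in level. Per kb of the deposited transcript length, and over the 18 Ctrl libraries, Dnmt3l was highest at 132 ± 28.1 CPM per kb (SD, n = 18), followed by Uhrf1 at 118 ± 28.8, Dnmt3b at 87.6 ± 27.9 and Dnmt1 at 78.4 ± 12.9. Tet1, the most abundant TET in these cells, was at 47.3 ± 11.2 CPM per kb. Dnmt3a stood at 20.1 ± 4.4 and Tet2 at 14.8 ± 4.16. Down to Tet2, each gene overlapped in range with its neighbour in this order. Tet3 was lowest at 3.34 ± 1.47, and its highest value, 6.16, lay below every Tet2 value (7.97 to 22.4).

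**Figure D1:**
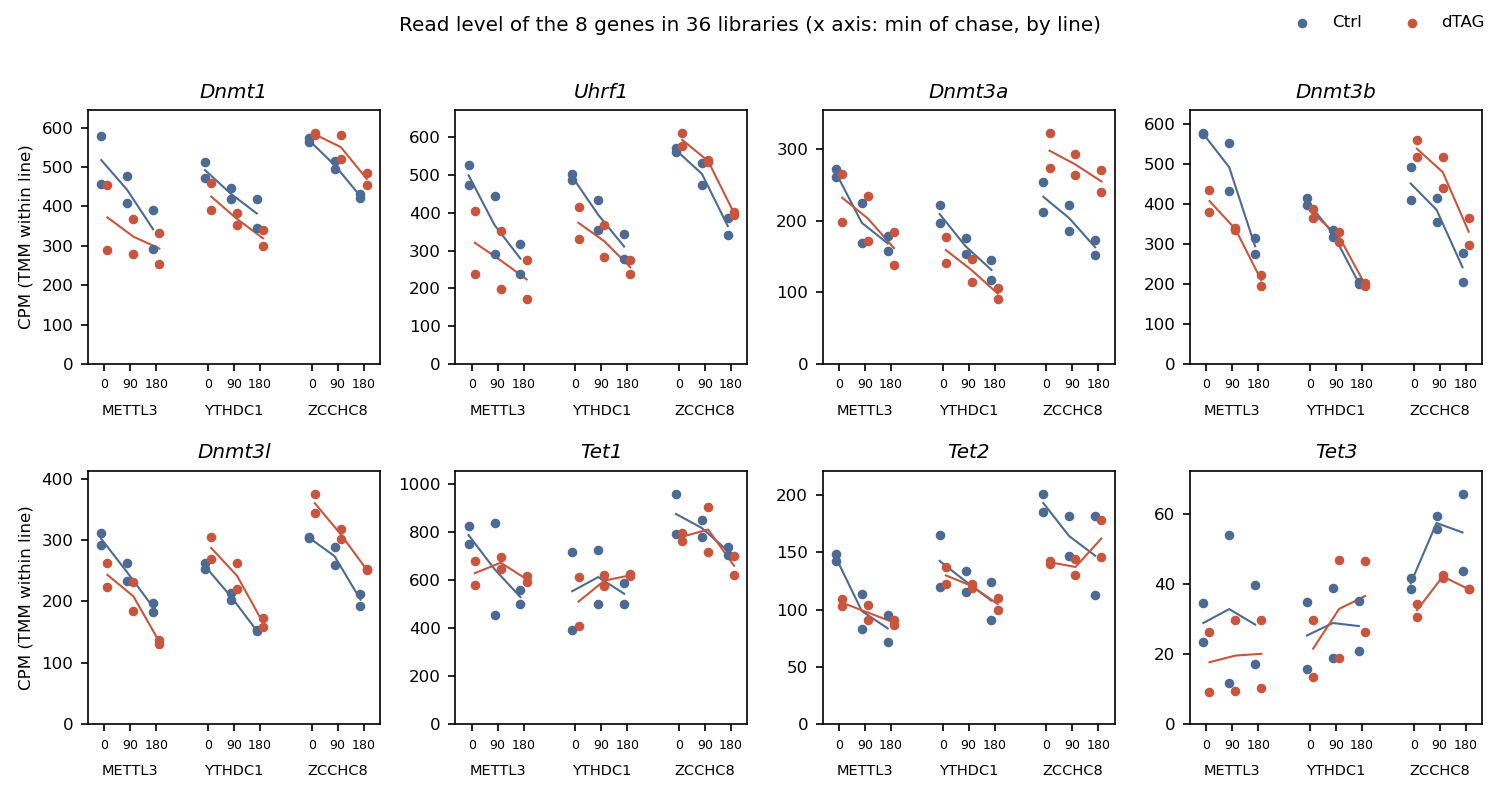
Read level (y axis, CPM scaled by TMM within each line, from 0) of each of the 8 genes against min of chase (x axis, 0, 90 and 180 in each line), with 1 point per library, blue for Ctrl and red for dTAG, and lines through the means of the 2 replicates. The DNMT genes and Uhrf1 are lower at 180 than at 0 min in all lines and both arms, dTAG lies below Ctrl for Dnmt3b in the METTL3 line and above it in the ZCCHC8 line, and Tet3 is between 9.10 and 65.8 CPM.

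The first comparison asked how the RNAs behaved over the chase, with both arms in the fit. The 5 genes of the methylating side, Dnmt1, Uhrf1, Dnmt3a, Dnmt3b and Dnmt3l, were lower at 180 than at 0 min in all 12 series of line, arm and replicate, on the CPM scale. How many of all genes fell in all 12 series by CPM was not counted. Dnmt3b, a de novo methyltransferase, fell most in each line. Its Ctrl values in the YTHDC1 line were 416 and 399 CPM at 0 min, 335 and 318 at 90 min, and 206 and 200 at 180 min. The values at 180 min were below every value at the earlier times in both arms of that line. In edgeR's quasi-likelihood test its log2 fold change from 0 to 180 min was -0.97 ± 0.12 (SE) for METTL3, -0.96 ± 0.07 for YTHDC1 and -0.80 ± 0.10 for ZCCHC8, with adjusted p = 0.001, 1.12e-05 and 1.12e-05. Dnmt3l, its cofactor, fell by 0.76, 0.78 and 0.55 on the log2 scale in the same order of lines, and Dnmt3a by 0.60, 0.68 and 0.37, all past the threshold of 0.05.

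Dnmt1 and Uhrf1, the maintenance pair, also fell in the YTHDC1 line (by 0.39 and 0.61 on the log2 scale) and with ZCCHC8 (by 0.36 and 0.60). In the METTL3 line their log2 values were -0.47 ± 0.18 and -0.68 ± 0.25, which did not pass (adjusted p = 0.104 and 0.0835). With the replicate number as a block they passed there too (adjusted p = 0.000418 and 4.32e-05), and 6 of 8 members were called in place of 4, beside 47.3% of all genes. Without the block the members called over the chase were 4 of 8 (METTL3), 6 (YTHDC1) and 7 (ZCCHC8), against 16.1% of 14413 genes, 41.0% of 14199 and 60.5% of 13962. With it 7 were called in each of the YTHDC1 and ZCCHC8 lines, against 67.2% and 64.3%.

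Among the TET genes the direction varied. Tet1 fell in the ZCCHC8 line (log2 -0.26 ± 0.07, adjusted p = 0.00341). It was at -0.32 ± 0.19 for METTL3 and 0.13 ± 0.20 for YTHDC1, and the difference between lines was not tested. In the YTHDC1 line the sign of Tet1 rested on the replicate, at -0.15 without replicate 1 (adjusted p = 0.0378) and 0.48 without replicate 2 (adjusted p = 0.000153). Tet2 fell for METTL3 (-0.53 ± 0.16, adjusted p = 0.0421) and for YTHDC1 (-0.36 ± 0.12, adjusted p = 0.038), and was at -0.10 ± 0.17 for ZCCHC8. Tet3 rose in the ZCCHC8 line (0.36 ± 0.10, adjusted p = 0.00342), a call that was lost without replicate 1 (0.13, adjusted p = 0.26). In the YTHDC1 line Tet3 was at 0.45 ± 0.39 (adjusted p = 0.381), and at 0.49 with the replicate block (adjusted p = 0.000942).

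The labelled share split the same genes. At 0 min Dnmt3l and Dnmt3b had the lowest shares, with medians of 16.2% and 17.3% over 12 libraries, against medians over genes of 48.4% to 60.3% in the same libraries. These values lay at the 4.29 and 6.06 percentile of 7011 genes that had enough reads (100) and label (a fraction of 0.02) in all 36 libraries. Dnmt3a followed at 23.0%, Dnmt1 at 29.4% and Uhrf1 at 37.0%. Tet1 was at 54.1%, at the 50.25 percentile. Tet2 and Tet3 were almost wholly labelled after the pulse, at 92% and 91.4%, and Tet2 was at the 90.7 percentile. The lowest Tet2 value at 0 min, 90.1%, was above the highest Tet1 value, 66.6%.

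During the chase the shares moved in opposite directions. For all 5 genes of the methylating side the labelled share rose from 0 to 180 min in all 12 series, as it did for 23.0% of the 7011 genes. The Dnmt3b share in the YTHDC1 Ctrl libraries went from 13.9% and 16.3% to 23.9% and 31.7%. For Tet2 and Tet3 the share fell in all 12 series, as it did for 34.2% of the 7011 genes. Tet2 in the same libraries went from 91.4% and 94.1% to 47.9% and 38.0%, and Tet3 from 98.3% and 91.4% to 35.1% and 35.8%. Tet1 rose in 4 of 12 series and fell in the others.

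The T-to-C rate, a count of conversions over covered T positions that does not use the model behind the share, gave the same direction for Dnmt3a, Dnmt3b and Dnmt3l in 12 of 12 series. It rose in 11 of 12 for Uhrf1 and in 9 of 12 for Dnmt1, and it fell in 12 of 12 for Tet1, Tet2 and Tet3. The median rate over genes fell in every series as well, for example from 4.35% to 2.47% in replicate 1 of the METTL3 Ctrl arm. How many of all genes rose or fell by this rate in all series was not counted. Multiplying CPM by the share separates labelled from unlabelled RNA. The unlabelled level of the 5 methylating genes fell in all 12 series, by a median of 1.15 on the log2 scale for Dnmt3b. Their labelled level had a median change of -0.041 for Dnmt3b, with 4 of 12 series higher, and 0.18 for Dnmt3l, with 11 of 12 higher. For Tet2 the labelled level fell by a median of 1.42. Its unlabelled level rose by a median of 2.63 (1.18 to 3.88 over the series), from a low start of 4.72 to 16.9 CPM at 0 min. Both levels are shares of the library, so they show change relative to other RNAs.

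**Figure D2:**
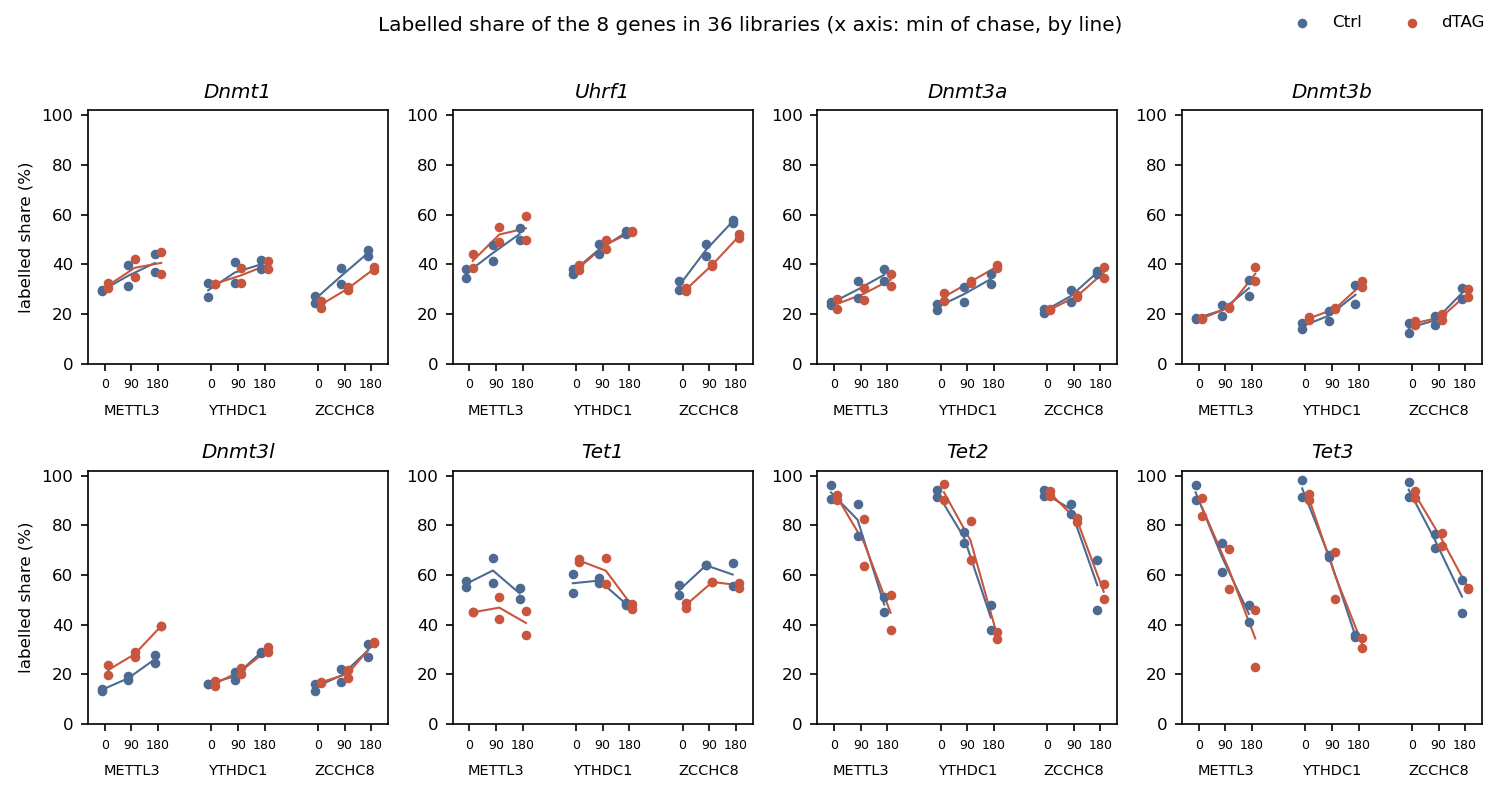
Labelled share (y axis, percent of the gene's RNA) of the 8 genes against min of chase (x axis, 0, 90 and 180 in each line), with 1 point per library, blue for Ctrl and red for dTAG, and lines through the replicate means. Dnmt3b and Dnmt3l start between 12.3% and 23.7% and climb, Tet2 and Tet3 start between 83.7% and 98.3% and drop to between 23.1% and 66.1% at 180 min.

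At 0 min the T-to-C rate was 6.75% to 9.49% of covered T positions in Tet2 and 6.06% to 8.78% in Tet3, against 1.05% to 1.63% in Dnmt3l and 1.18% to 1.63% in Dnmt3b. The alignment limited mismatches per read, so reads with many conversions could have been dropped. The part of this in the level changes of Tet2 and Tet3 over the chase was not tested.

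**Figure D3:**
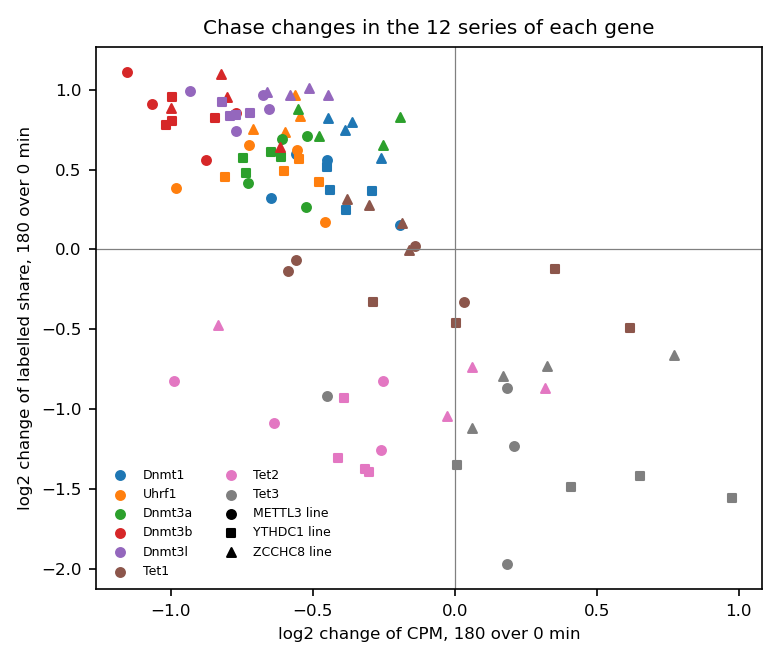
Log2 change of CPM (x axis) against log2 change of labelled share (y axis), both 180 over 0 min, for 12 series per gene (colour), with the line given by the marker shape. The DNMT genes and Uhrf1 lie at the upper left in all 12 series, Tet2 and Tet3 lie below 0 on the y axis, and Tet1 has points on both sides of 0.

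The next comparison asked how depletion of METTL3 changed the 8 genes. Dnmt3b and Dnmt3l were lower in dTAG, no member was higher, and the other 6 did not pass. Dnmt3b was at 578 and 576 CPM in the Ctrl libraries at 0 min and at 381 and 435 in dTAG. At 180 min it was at 315 and 275 in Ctrl and at 223 and 195 in dTAG. dTAG lay below Ctrl in 6 of 6 pairs of the same chase time and replicate, by 0.35 to 0.72 on the log2 scale. The fitted log2 fold change was -0.51 ± 0.09 (edgeR quasi-likelihood test, adjusted p = 0.0036). Dnmt3l went from 312 and 293 CPM in Ctrl at 0 min to 224 and 263 in dTAG, and was lower in 6 of 6 pairs (-0.35 ± 0.10, adjusted p = 0.0254). The 2 of 8 members stand against 20.1% of 14413 genes called, 11.3% higher and 8.8% lower.

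Dnmt1 and Uhrf1 were also lower in dTAG in 6 of 6 pairs, but the replicates lay far apart. Dnmt1 had 457 and 578 CPM in Ctrl and 290 and 453 in dTAG at 0 min. Uhrf1 had 473 and 527 CPM in Ctrl and 237 and 404 in dTAG. In each chase time replicate 1 was the lower of both dTAG libraries. The log2 values were -0.38 ± 0.15 for Dnmt1 (adjusted p = 0.0955) and -0.46 ± 0.20 for Uhrf1 (adjusted p = 0.134). With the replicate block both passed (-0.39, adjusted p = 0.000238 and -0.50, adjusted p = 0.000129), as did Tet3 (-0.70, adjusted p = 0.000787, from -0.65 ± 0.45 and adjusted p = 0.354), which made 5 of 8 members beside 48.5% of all genes.

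Tet1, Tet2 and Dnmt3a did not pass in this line, with log2 values of -0.03 ± 0.15, -0.13 ± 0.13 and -0.07 ± 0.13. Tet1 ran from 452 to 836 CPM in Ctrl and from 577 to 695 in dTAG. Tet3 was lower in dTAG in 6 of 6 pairs, from 9.10 CPM (99 reads) in dTAG to 53.9 CPM in Ctrl, and its replicate 2 was above its replicate 1 in every group of the line. When the 3 chase libraries of each replicate and arm were summed, which leaves 2 against 2, edgeR called 0 of 15894 genes (1434 at an unadjusted p under 0.05), and Dnmt3b had a log2 fold change of -0.51 (adjusted p = 0.615). Both calls were also lost at 0 min only and with 90 and 180 min only. The sum of 5 primitive endoderm markers was 6.84 to 20.7 CPM in Ctrl and 14.3 to 36.3 in dTAG of this line, and the part of this in the results was not tested.

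With YTHDC1 depleted, Dnmt3a, the other de novo methyltransferase, was lower, and no other member passed. It was at 197 and 223 CPM in Ctrl and 141 and 177 in dTAG at 0 min, and at 117 and 146 against 90.2 and 107 at 180 min. It was lower in 6 of 6 pairs, by 0.26 to 0.48 on the log2 scale, with a fitted value of -0.38 ± 0.10 (edgeR, adjusted p = 0.044). This 1 of 8 members stands against 5.25% of 14199 genes called, 2.48% higher and 2.77% lower. The call was lost with a stricter filter on low counts (adjusted p = 0.0742) and with 90 and 180 min only (adjusted p = 0.226). It was also lost at 0 min only and with the libraries summed, where edgeR called 0 of 15512 genes (698 at an unadjusted p under 0.05).

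Dnmt1 and Uhrf1 were lower in dTAG of the YTHDC1 line in 6 of 6 pairs as well. Dnmt1 was at 472 and 512 CPM in Ctrl against 390 and 460 in dTAG at 0 min, and Uhrf1 at 487 and 504 against 331 and 416. Their log2 values were -0.23 ± 0.08 (adjusted p = 0.12) and -0.32 ± 0.10 (adjusted p = 0.0973). With the replicate block they passed (adjusted p = 8.31e-05 and 1.32e-05). Dnmt3l was higher in 6 of 6 pairs of this line, at 0.16 ± 0.07 (adjusted p = 0.225), and passed with the block (adjusted p = 0.00917), so that the block called 4 of 8 members beside 27.3% of all genes. This Dnmt3l value rested on replicate 2, at 0.062 without it (adjusted p = 0.574) and 0.24 without replicate 1 (adjusted p = 0.000201). Dnmt3b was at -0.06 ± 0.06, Tet1 at 0.01 ± 0.16, Tet2 at -0.07 ± 0.10 and Tet3 at 0.12 ± 0.32.

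With ZCCHC8 depleted, Dnmt3a, Dnmt3b and Dnmt3l were higher in dTAG and Tet3 was lower. Dnmt3a rose from 255 and 213 CPM to 322 and 274 at 0 min and from 174 and 153 to 271 and 240 at 180 min, in 6 of 6 pairs, with a log2 fold change of 0.48 ± 0.07 (edgeR, adjusted p = 1.32e-05). At 180 min the dTAG libraries were above both Ctrl libraries, and its summed-library test gave adjusted p = 0.00177. Dnmt3b rose by 0.34 ± 0.08 (adjusted p = 0.00515), from 493 and 411 CPM to 560 and 518 at 0 min. Dnmt3l rose by 0.24 ± 0.05 (adjusted p = 0.00017), from 303 and 306 CPM to 376 and 344.

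Tet3 fell by 0.43 in the ZCCHC8 line (SE 0.08, adjusted p = 0.000135). It was at 38.5 and 41.8 CPM in Ctrl and 30.7 and 34.3 in dTAG at 0 min, and at 65.8 and 43.7 against 38.5 and 38.6 at 180 min. Dnmt1 and Uhrf1 were each higher in 6 of 6 pairs by a small amount, 0.10 ± 0.04 for both (adjusted p = 0.0678 and 0.0889), and passed with the block (adjusted p = 0.0234 and 0.0242). Tet1 was at -0.10 ± 0.06 (adjusted p = 0.174) and also passed with the block (adjusted p = 0.0293). With the chase libraries summed these 3 did not pass (adjusted p = 0.249 for Dnmt1, 0.228 for Uhrf1 and 0.277 for Tet1), while the other 4 were called. The 4 of 8 members called, 7 with the block, stand against 39.6% of 13962 genes (20.1% higher, 19.5% lower), or 45.9% with the block. With the 0 min libraries alone 2 of 8 were called, which were Dnmt3a (adjusted p = 0.0336) and Tet2 (-0.45, adjusted p = 0.00256), and Dnmt3b, Dnmt3l and Tet3 were lost (adjusted p = 0.13, 0.131 and 0.145).

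Markers of other states moved in this line too. Otx2, Fgf5 and Pou3f1, which mark the formative and primed epiblast, summed to 13.4 to 26.0 CPM in Ctrl (median 15.9) and 24.5 to 40.3 in dTAG (median 29.9). The 5 markers of 2-cell-like cells summed to 24.2 to 52.5 CPM in Ctrl and 93.2 to 209.8 in dTAG, with no overlap. Of these 8 markers 0 were at 0 in any library. The 5 trophoblast markers summed to 34.8 to 44.7 CPM in Ctrl and 43.6 to 62.0 in dTAG, and the 5 primitive endoderm markers to 15.0 to 25.1 CPM in Ctrl (median 18.8) and 20.6 to 31.7 in dTAG (median 29.3). Their part in the rise of the de novo genes was not tested.

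In no line and for no member did the arms separate over all 6 libraries each. By this measure 7.9% of all genes separated with METTL3, 2.31% with YTHDC1 and 8.85% with ZCCHC8 depleted.

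**Figure D4:**
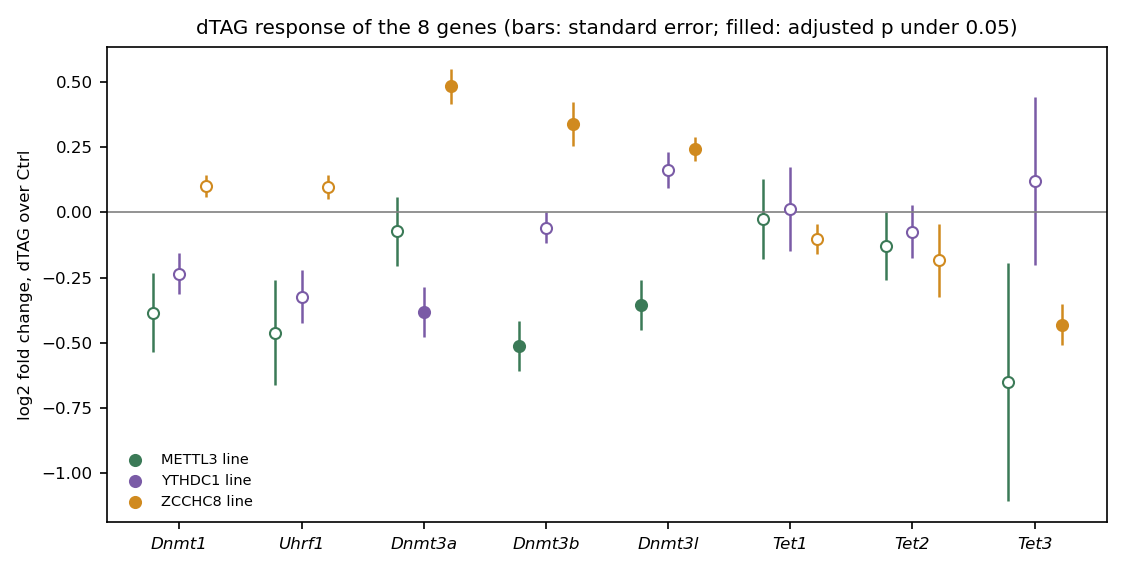
Log2 fold change of dTAG over Ctrl (y axis) for the 8 genes (x axis) in the 3 lines (colours), from the edgeR fit of 12 libraries per line, with bars of 1 standard error and filled points for adjusted p under 0.05. Dnmt3b is at -0.51 in the METTL3 line and 0.34 in the ZCCHC8 line, Dnmt3a is at -0.38 for YTHDC1 and 0.48 for ZCCHC8, and Tet1 is at -0.03, 0.01 and -0.10.

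The difference between lines was tested as the interaction of arm and line over 36 libraries. The dTAG response of Dnmt3b was lower in the METTL3 line than in the YTHDC1 line by a log2 difference of -0.48 ± 0.12 (adjusted p = 0.00342), and that of Dnmt3l by -0.54 ± 0.10 (adjusted p = 0.000138). The Ctrl levels of both genes were higher in the METTL3 line. In these 2 lines mean Dnmt3b was at 105 and 73.2 CPM per kb in Ctrl and at 72.6 and 69.75 in dTAG. Mean Dnmt3l was at 136 and 114 in Ctrl and at 106 and 128 in dTAG. The response of Dnmt3a was higher in the ZCCHC8 line than in the YTHDC1 line by 0.81 ± 0.15 (adjusted p = 0.000385), and that of Dnmt3b by 0.34 ± 0.12 (adjusted p = 0.0444). Between the ZCCHC8 and METTL3 lines 4 members differed, which were Dnmt3b by 0.82 ± 0.12 (adjusted p = 4.95e-06), Dnmt3l by 0.56 ± 0.10, Dnmt3a by 0.52 ± 0.15 and Dnmt1 by 0.45 ± 0.14 (adjusted p = 5.79e-05, 0.0117 and 0.0194). Uhrf1 was at 0.52 ± 0.19, on the threshold (adjusted p = 0.05). The members called were 2, 2 and 4 of 8, against 20.6%, 14.4% and 23.7% of 15101 genes, and 5 of 8 in each with the replicate block, against 42.8%, 32.3% and 43.6%. The block added Dnmt1 and Dnmt3a between METTL3 and YTHDC1 (adjusted p = 0.0349 and 0.00334), Dnmt1 and Uhrf1 between ZCCHC8 and YTHDC1 (0.00225 and 0.00122), and Uhrf1 between ZCCHC8 and METTL3 (2.37e-06).

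No TET gene passed in these tests, but with the block Tet3 did between METTL3 and YTHDC1 (-0.82, adjusted p = 0.00068) and between ZCCHC8 and YTHDC1 (-0.60, adjusted p = 0.012). For Tet1 the 3 interaction values were -0.06 ± 0.20 (METTL3 against YTHDC1), -0.17 ± 0.20 (ZCCHC8 against YTHDC1) and -0.11 ± 0.20 (ZCCHC8 against METTL3).

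The labelled share gave 1 call among the members. In the METTL3 line the Dnmt3l share at 0 min was 13.3% and 14.2% in Ctrl and 23.7% and 19.9% in dTAG. The 5% to 95% credible ranges of these libraries, 12.3% to 15.3% in Ctrl and 18.8% to 25.1% in dTAG, did not meet. Such ranges leave out the spread between replicates, and how many of all genes had ranges that did not meet was not counted. The share stayed higher in dTAG at 90 min (29.1% and 27.2% against 17.8% and 19.2%) and at 180 min (39.6% and 39.5% against 24.5% and 27.8%). The fitted difference at 0 min was 0.65 ± 0.14 on the log2 scale (limma, adjusted p = 0.00144), while the median over all tested genes was -0.10. In that test 13.2% of 8289 genes were called, 0.917% higher and 12.3% lower. In the same test none of 8 members was called in the YTHDC1 line (0.0227% of 8820 genes, 560 at an unadjusted p under 0.05) or the ZCCHC8 line (0.165% of 7251 genes, 436). The labelled Dnmt3l level was 41.6 and 41.7 CPM in Ctrl against 53.0 and 52.2 in dTAG at 0 min, and was higher in 6 of 6 pairs. The unlabelled level was 270.0 and 250.9 CPM against 170.8 and 210.5, and was lower in 6 of 6.

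For Dnmt3b in the same line both parts were lower in dTAG in 6 of 6 pairs, the labelled level from 107 and 103 CPM to 70.6 and 78.5 at 0 min. Dnmt3a in the YTHDC1 line was lower in both parts as well, in 6 of 6 pairs each. In the ZCCHC8 line the labelled and the unlabelled level of Dnmt3a, Dnmt3b and Dnmt3l were higher in 6 of 6 pairs each. The Tet1 share was lower in dTAG of the METTL3 line in 6 of 6 pairs, at 45.0% and 45.0% against 55.3% and 57.6% at 0 min, as the library medians were (52.3% and 48.4% against 59.6% and 60.3%). The fitted Tet1 difference did not pass.

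The change of the labelled share per hour of chase was called for 0 members in each line by the limma test of the interaction of arm and time. Tet3 had too few reads for this test in the METTL3 line, so 7 members were tested there and 8 in the other lines. The same test called 39 of 8289 genes (0.471%) in the METTL3 line, with 578 at an unadjusted p under 0.05. It called 0 of 8820 (0.0%) in the YTHDC1 line, with 195 at an unadjusted p under 0.05, and 0 of 7251 (0.0%) in the ZCCHC8 line, with 147.

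Among the Ctrl libraries the lines themselves differed. Dnmt3b was higher in the METTL3 line than in the YTHDC1 line by 0.54 ± 0.09 (edgeR, adjusted p = 0.00356) and Dnmt3l by 0.26 ± 0.06 (adjusted p = 0.034), against 2.43% of 14265 genes called. Dnmt3l and Tet2 were higher in the ZCCHC8 line than in the YTHDC1 line (0.34 ± 0.06, adjusted p = 0.00499 and 0.42 ± 0.14, adjusted p = 0.0486), against 13.6%. Tet2 was higher in the ZCCHC8 line than in the METTL3 line by 0.65 ± 0.14 (adjusted p = 0.00415) and Uhrf1 by 0.34 ± 0.11 (adjusted p = 0.0243), and Dnmt3b was lower by 0.33 (SE 0.09, adjusted p = 0.0117), against 30.7%. The Dnmt3l call between METTL3 and YTHDC1 was lost without replicate 2 (0.27, adjusted p = 0.207), and the Uhrf1 call between ZCCHC8 and METTL3 without replicate 1 (0.10, adjusted p = 0.0715). Each line was 1 clone and its libraries had their own depth, so line, clone and preparation cannot be told apart.

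Genes around the 8 enzymes were counted in lists chosen by function, with calls from the main fit only. With the chase libraries summed, no gene was called in the METTL3 or YTHDC1 line, so no list call in those lines held there. Values with the replicate block or without a replicate are not given for the lists. The counts stand against the shares of all genes called in the METTL3 (11.3% higher, 8.8% lower), YTHDC1 (2.48% and 2.77%) and ZCCHC8 lines (20.1% and 19.5%). Of 11 maintenance partners 1 rose in the METTL3 line, which was Zbtb24 (0.68 ± 0.12, adjusted p = 0.00308). In the YTHDC1 line 1 fell, which was Ehmt2, a histone H3K9 methyltransferase (-0.58 ± 0.13, adjusted p = 0.0279). With ZCCHC8 depleted 1 rose and 4 fell, with Dppa3, which opposes UHRF1, at 0.49 ± 0.14 and Cdca7l at -0.49 ± 0.05 and Pclaf at -0.30 ± 0.08. The list medians were -0.12, -0.21 and -0.01 in the 3 lines, beside medians of 0.01, 0.01 and -0.00 over all genes.

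Of 9 regulators and partners of de novo methylation 8 were tested. Setd2 and Nsd1, which write the H3K36 methylation that guides the DNMT3 enzymes, rose in the METTL3 line (0.50 ± 0.13 and 0.45 ± 0.09, adjusted p = 0.0162 and 0.00404), and none of the list fell there. None passed in the YTHDC1 line. ZCCHC8 depletion left Nsd1 higher by 0.15 ± 0.05 while Nsd2 and Mybl2 fell (-0.52 ± 0.05 and -0.26 ± 0.05). A list of 11 genes held TET partners, cofactor enzymes and Zfp57, which is neither. Of these, Cxxc5 and Zfp57 rose in the METTL3 line (0.72 ± 0.23 and 0.33 ± 0.10). Idh2, which makes the TET cosubstrate 2-oxoglutarate in mitochondria, fell in the YTHDC1 line (-0.70 ± 0.06, adjusted p = 0.000239). For ZCCHC8 1 rose (Zfp57, 0.37 ± 0.11) and 5 fell, led by Cxxc5 (-0.46 ± 0.08) and Idh3a (-0.44 ± 0.05).

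A list of 15 genes covered base excision repair, which replaces oxidised cytosine, and the Gadd45 genes, which do not encode repair enzymes. It held 2 that rose in the METTL3 line. These were Apex1, the abasic site nuclease, from 224 ± 67.1 to 384 ± 68.4 CPM (SD, n = 6; 0.80 ± 0.18, adjusted p = 0.00956) and Smug1 (0.71 ± 0.22). Lig3 fell in the YTHDC1 line (-0.41 ± 0.06, adjusted p = 0.0038). For ZCCHC8 5 rose and 2 fell, with Gadd45g at 1.12 ± 0.22 and Gadd45b at 0.62 ± 0.11. Of 9 genes from the families of methyl-CpG readers, not all of which bind methylated DNA, Zbtb38 rose in the METTL3 line (0.31 ± 0.09). None of them passed in the YTHDC1 line. For ZCCHC8 2 rose and 5 fell, with Zbtb4 at 1.07 ± 0.22 and Zbtb38 at -0.48 ± 0.07. Among those that fell were Mbd3 and Mbd6 (-0.13 and -0.41), whose proteins do not bind methylated CpG in mammals. Of 12 tested genes of the methyl donor cycle, Mettl16, which controls Mat2a, rose in the METTL3 line (0.30 ± 0.08). None passed with YTHDC1 depleted, and for ZCCHC8 Mat2a rose by 0.18 ± 0.06 and Shmt1 and Shmt2 fell (-0.16 ± 0.05 and -0.15 ± 0.04).

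The last list held 14 germline genes that promoter methylation keeps silent in somatic cells. In the METTL3 line Tex101 and Brdt rose (1.06 ± 0.17 and 1.05 ± 0.27) and Hormad1 fell (-0.84 ± 0.21, from 30.7 ± 4.76 to 17.1 ± 5.81 CPM). In the YTHDC1 line Fkbp6 and Ddx4 rose (0.48 ± 0.10 and 0.38 ± 0.07). With ZCCHC8 depleted 5 rose and none fell, against 20.1% of all genes higher, with Mael from 6.59 ± 1.46 to 11.6 ± 1.87 CPM (0.84 ± 0.11, adjusted p = 1.53e-06) and Brdt at 0.73 ± 0.28. Tex101 and Brdt were low genes, at 2.16 ± 0.685 and 1.04 ± 0.434 CPM in the METTL3 Ctrl libraries and 4.46 ± 0.47 and 2.22 ± 0.572 in dTAG. The list medians were -0.01, 0.10 and 0.20.

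The likeness of patterns was measured as the correlation of log2 CPM over 36 libraries after each line's mean was taken out, among 9512 genes. Uhrf1 was the gene most like Dnmt1 and Dnmt1 the one most like Uhrf1 (r = 0.96 over 36 libraries). Next for Dnmt1 came Ubxn1 and Sf3b2 (0.95 and 0.94) and for Uhrf1 Eif3g and Bop1 (0.96 and 0.95). Dnmt3b was the gene most like Dnmt3l (r = 0.93), followed by Apobec3 and Cap1 (both 0.92), while Slc25a1 led for Dnmt3b (0.97), followed by Pfkp and Snrpn (0.95 and 0.94). Dnmt3a was closer to Uhrf1 and Dnmt1 (0.84 and 0.79) than to Dnmt3l and Dnmt3b (both 0.74), and Tet2 was closer to Dnmt1 (0.53) than to Tet1 (0.47) or Tet3 (0.18). Tet3 was at -0.12 with Dnmt3b and 0.57 with Tet1. These values describe libraries that share chase time, replicate and depth, and a common course over the chase is part of them.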

How the data were processed

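SLAM-seq libraries (stranded total RNA, paired end) of 3 mES degron lines were analysed. Per the labels and the methods of the study, the authors discarded reads on rRNA, aligned the rest to mm10 with STAR 2.5.2b (the version is in the submitters' processing notes), keeping unique end-to-end hits under a mismatch limit. GRAND-SLAM was run for each line and replicate. The GRAND-SLAM version, its use of strand and the annotation release are not given in the sources used here. The deposited read counts are raw counts per gene. The deposited new-to-total ratio is a fraction (maximum a posteriori value, mean and 5% and 95% quantiles), printed as percent. The deposited conversions and coverage are sums over T positions, a signal used only for the T-to-C rate. The authors' 180 other columns of per-sample values (double hits, model parameters) were not used. Each table names its columns by arm and chase time, and the replicate was read from the table.

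Counts were filtered with filterByExpr and scaled by TMM within a line, over 36 libraries between lines, or over the 18 Ctrl libraries. They were tested with edgeR 4.0.16 (glmQLFit and glmQLFTest, robust; chase time as a factor), in R 4.3.3. The log2 ratio was tested with limma 3.58.1 (arm, hours of chase and their interaction) over genes that had 100 reads or more and a ratio of 0.02 or more throughout a line's libraries. Benjamini-Hochberg values over all genes tested were called under 0.05. DESeq2 1.42.0 and other settings were alternatives. The tests were checked on simulated data with independent libraries. That check cannot speak to libraries that share a replicate. Intervals cover counting and model error of single libraries only.

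Same-numbered Ctrl and dTAG libraries deviated together from their group means over all genes in every line, with correlations of 0.66 to 0.81 (METTL3), 0.73 to 0.79 (YTHDC1) and 0.21 to 0.23 (ZCCHC8) at the 3 chase times, and the study's reporting summary puts the wells of a repeat in 1 batch of cells, so the numbers, taken from the tables and labels, were taken to pair the samples. The main fit has no block, and the blocked value stands beside a result where it changed the call.

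The 8 members and the lists were chosen with earlier results of these data known. From each list at most the 2 genes that rose most and the 2 that fell most in a line were named, or all where needed for a count of 5 or fewer. Genes most like a member were the 3 with the highest correlation, given for 4 members, among genes with a mean of at least 10 CPM (prior count 2). CPM are counts scaled to TMM library size, within a line unless stated. Marker sums use the total reads of a library without TMM. No protein sequence or genome was used. A gene of the related lists that the naming rule picked is not reported here.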

Additional observations from a re-analysis of the deposited data

Results flagged for a closer look

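The dTAG response differed between lines by the interaction test in 8 of 24 gene and line pair combinations. Dnmt3b (log2 difference -0.48) and Dnmt3l (-0.54) were lower in the METTL3 line than in the YTHDC1 line. Dnmt3a (0.81) and Dnmt3b (0.34) were higher in the ZCCHC8 line than in the YTHDC1 line. Dnmt1 (0.45), Dnmt3a (0.52), Dnmt3b (0.82) and Dnmt3l (0.56) were higher in the ZCCHC8 line than in the METTL3 line. The 3 line pairs share their libraries, so these 8 values are not independent.

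Among 48 sets of 6 libraries (gene, line and arm), 2 held a library far from the others by Dixon's criterion, which flags about 1 set in 20 by chance. Tet1 was at 406.5 CPM in the first replicate at 0 min of the YTHDC1 dTAG arm, where the other 5 libraries ran from 574 to 623 CPM. Tet2 was at 178 CPM in the second replicate at 180 min of the ZCCHC8 dTAG arm, above 130 to 146 CPM in the others. Both sets span 3 chase times.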

How the results depend on the processing

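Of 600 gene values of level under an alternative, 479 kept their direction and their side of the threshold, 84 passed only under the alternative, 19 were lost and 18 changed sign. None of the 39 called level values changed sign. The counts below are members called of 8, and the cause of a change was not tested.

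With the replicate block the dTAG test called 5 in place of 2 members in the METTL3 line, 4 in place of 1 in the YTHDC1 line and 7 in place of 4 in the ZCCHC8 line, and the 3 interactions called 5 each in place of 2, 2 and 4. Over the chase it called 6 in place of 4, 7 in place of 6 and 7, and it changed no other call than those given with the results. Over all genes the block called 6994 in place of 2898, 3875 in place of 746 and 6405 in place of 5533 in the dTAG tests. Without 1 replicate the dTAG test called 5 to 6, 3 to 5 and 4 to 7 members, beside 5717 to 7472, 1335 to 3555 and 3409 to 5091 of all genes. Over the chase it called 8 in the YTHDC1 line in both fits, beside 7402 to 8760 of all genes in place of 5821. Such fits also moved the members called over the chase in the METTL3 line, in both interactions with YTHDC1 and for the Ctrl levels. Those fits hold 1 library per group, assumed to vary like the others, and the spread comes from the additive fit of arm and chase time.

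With the chase libraries summed, with 0 min only and with 90 and 180 min only, the dTAG test called 0 in the METTL3 and YTHDC1 lines. In the ZCCHC8 line 0 min only called 2, beside 1373 of all genes. DESeq2 called 3 in the YTHDC1 line, beside 1156 of all genes, and 5 and 5 (2751 and 4805 of all genes) for the Ctrl levels of ZCCHC8 against YTHDC1 and METTL3. The stricter filter called 0 in the YTHDC1 line and added Dnmt1 and Uhrf1 in the ZCCHC8 line (adjusted p = 0.0259 and 0.037). Without a filter 1 was called in the interaction of ZCCHC8 and YTHDC1 and in both Ctrl comparisons with YTHDC1, of METTL3 and ZCCHC8 (1948, 268 and 2007 of all genes). The share at 0 min over the library median called 3 in the METTL3 line, with Dnmt1 and Uhrf1 added. All-gene counts are not given here for the stricter filter, this share, or the fits by chase time in the METTL3 and YTHDC1 lines. Member counts under those settings therefore stand without a background.

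The values that changed sign were not called in the fits reported, but Tet1 over the chase in the YTHDC1 line passed in opposite directions without each replicate, and Tet2 in the ZCCHC8 line passed at 0.16 without replicate 1 (adjusted p = 0.0189). In the METTL3 dTAG test without 1 replicate, Dnmt3a ran from -0.16 to 0.022, Tet1 from -0.17 to 0.19 and Tet2 from -0.34 to 0.12, and with 90 and 180 min only Tet1 was at 0.11 and Tet2 at 0.021. In the YTHDC1 dTAG test Tet1 ran from -0.13 to 0.18 and Tet2 from -0.21 to 0.068, and at 0 min only Tet1 was at -0.11 and Tet3 at -0.23. Over the chase Tet3 ran from -0.15 to 0.23 (METTL3), Tet1 from -0.15 to 0.48 (YTHDC1) and Tet2 from -0.38 to 0.16 (ZCCHC8). For interactions Tet2 ran from -0.14 to 0.0047 (METTL3 against YTHDC1) and, for ZCCHC8 against METTL3, Tet1 from -0.25 to 0.037 and Tet2 from -0.19 to 0.082. For Ctrl levels Dnmt1 ran from -0.12 to 0.051 and Tet3 from -0.12 to 0.22 (METTL3 against YTHDC1), and Dnmt3a from -0.28 to 0.17 (ZCCHC8 against METTL3). Of 362 label values that were not called, 51 changed sign and 2 passed under an alternative.

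Depth limits Tet3 most, at 99 reads in the lowest library, and no paired fit was made for the Ctrl levels, since a number is shared between lines only as a name.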
